A study of Mus musculus with 5 samples.

Results

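Glycosyltransferase and sulfotransferase genes build and decorate the sugar chains of the cell surface and matrix. Here they are the 33 genes, of 1935 listed in any of 4 SUZ12 peak tables, whose symbol begins with Galnt, Chst, Chsy, Chpf, Hs3st, Hs6st, Ndst, B3gal, B3gnt, B4gal, St3gal, St6gal, St8sia, Fut, Mgat or Extl. They were selected by having a SUZ12 peak linked within 5000 bp of the start site in at least 1 library, so that they carry a peak at all is not a result. SUZ12 is needed for the activity of PRC2, the Polycomb complex that methylates histone H3 on lysine 27. Each library was made by SUZ12 chromatin immunoprecipitation and sequencing (ChIP-seq) from male 129SV mouse embryonic stem cells (ESCs) in conventional medium with LIF, the cytokine that keeps ESCs undifferentiated. All 4 cultures lacked the endogenous Mbd3 gene, whose protein belongs to the NuRD complex of chromatin remodellers. They carried GFP (taken as the control), WT (taken as full-length MBD3), deltaMBD (MBD3a without its methyl-CpG-binding domain, ΔMBD below) or deltaCC (MBD3a without its coiled-coil domain, ΔCC below). There was 1 library of each. The labels do not say how these constructs were delivered, at what levels, or whether the cells were 1 clone. The input, made without antibody from EBRTcH3 cells, was not used here.

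Heparan sulfate and chondroitin sulfate are long sulfated chains on proteoglycans, and the pattern of their sulfate groups sets which growth factors they bind. Mucin-type O-glycans begin with N-acetylgalactosamine (GalNAc) on serine or threonine, and sialic acids and fucose cap many chains. In mouse ESCs, cells without heparan sulfate self-renew but respond poorly to signals for differentiation. The Lewis X sugar, a fucosylated structure known as SSEA-1, is a surface marker of the undifferentiated state. PRC2 in ESCs occupies mainly CpG-rich start sites of genes that are silent or little used.

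The values are signed distances, in bp, from a gene's start site to the centre of a peak, with positive values downstream. A gene with at least 1 such peak within 5 kb is called listed. The tables give no peak height, width or read number, so depth is unknown and the number of peaks at a gene is not a measure of binding strength. A gene that is not listed was not shown to lack SUZ12. Each group being 1 library, differences have no replicate check and no p-value was computed. The intervals below are exact 95% binomial (Clopper-Pearson) intervals and cover counting error over genes or peaks only. A peak table holds no expression value, so the ESC identity of the cultures could not be checked against marker transcripts, and neither could the loss of Mbd3.

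Because PRC2 sites are known for CpG-rich sequence, RefSeq promoter windows (build GRCm38.p6, from 250 bases before to 50 after a start site) are shown for 6 of the 33 genes. The CG dinucleotides stand in capitals. St8sia6, Chst3 and B4galnt2 are shown because peak centres fell inside the interval their windows span. Galnt3 and Hs6st3 had peaks on both sides of the start site, and Chst1 had the lowest CpG content of the 26 genes with a window. The windows lie at chr2:13793471-13793770 (minus strand) for St8sia6, chr10:60219211-60219510 (minus strand) for Chst3, chr11:95914822-95915121 (minus strand) for B4galnt2, chr2:66124744-66125043 (minus strand) for Galnt3, chr14:119138015-119138314 (plus strand) for Hs6st3 and chr2:92600867-92601166 (plus strand) for Chst1. The distances in the peak tables were taken on mm9, and the start site used there may not be the one of the RefSeq window.
St8sia6: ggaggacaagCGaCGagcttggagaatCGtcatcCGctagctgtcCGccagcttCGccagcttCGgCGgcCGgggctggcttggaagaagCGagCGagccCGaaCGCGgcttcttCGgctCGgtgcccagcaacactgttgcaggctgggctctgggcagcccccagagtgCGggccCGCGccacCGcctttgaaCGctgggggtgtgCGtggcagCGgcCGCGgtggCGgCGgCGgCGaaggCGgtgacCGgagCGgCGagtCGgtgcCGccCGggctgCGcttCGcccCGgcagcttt
Chst3: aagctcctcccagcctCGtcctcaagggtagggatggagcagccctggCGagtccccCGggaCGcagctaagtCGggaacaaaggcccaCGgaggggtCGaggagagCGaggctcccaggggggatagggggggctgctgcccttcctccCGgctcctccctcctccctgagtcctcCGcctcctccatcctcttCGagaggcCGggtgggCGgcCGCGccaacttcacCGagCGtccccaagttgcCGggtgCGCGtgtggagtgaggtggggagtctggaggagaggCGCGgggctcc
B4galnt2: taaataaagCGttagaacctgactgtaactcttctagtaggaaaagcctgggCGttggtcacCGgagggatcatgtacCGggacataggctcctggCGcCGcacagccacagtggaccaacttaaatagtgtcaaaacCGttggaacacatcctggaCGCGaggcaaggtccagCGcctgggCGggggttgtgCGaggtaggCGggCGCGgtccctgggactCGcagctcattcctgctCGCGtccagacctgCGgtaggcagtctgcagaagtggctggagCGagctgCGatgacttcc
Galnt3: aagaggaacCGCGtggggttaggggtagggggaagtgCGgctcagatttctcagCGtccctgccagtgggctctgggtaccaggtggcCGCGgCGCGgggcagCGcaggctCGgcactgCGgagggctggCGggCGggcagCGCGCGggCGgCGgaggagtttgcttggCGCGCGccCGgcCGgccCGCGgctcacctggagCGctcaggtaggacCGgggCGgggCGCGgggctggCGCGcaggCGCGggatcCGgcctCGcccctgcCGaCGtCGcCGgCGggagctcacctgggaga
Hs6st3: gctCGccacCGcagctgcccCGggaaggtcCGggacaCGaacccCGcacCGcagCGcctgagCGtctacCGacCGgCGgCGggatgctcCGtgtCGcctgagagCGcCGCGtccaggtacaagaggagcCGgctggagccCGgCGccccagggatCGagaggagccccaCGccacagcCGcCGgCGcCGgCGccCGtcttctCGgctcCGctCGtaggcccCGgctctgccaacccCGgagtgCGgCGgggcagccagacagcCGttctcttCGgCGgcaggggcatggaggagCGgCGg
Chst1: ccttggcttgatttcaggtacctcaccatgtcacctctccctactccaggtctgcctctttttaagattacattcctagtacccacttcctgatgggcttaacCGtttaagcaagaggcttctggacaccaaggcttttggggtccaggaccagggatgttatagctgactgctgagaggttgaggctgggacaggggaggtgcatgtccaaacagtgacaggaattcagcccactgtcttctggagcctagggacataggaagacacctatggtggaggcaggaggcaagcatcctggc

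The 6 windows held 39 CG dinucleotides in St8sia6, 22 in Chst3, 21 in B4galnt2, 41 in Galnt3, 41 in Hs6st3 and 1 in Chst1. The observed/expected CpG ratio, which is the CG count times the window length over the product of the C and G counts, was 1.01 in St8sia6, 0.60 in Chst3, 0.81 in B4galnt2, 0.97 in Galnt3, 0.96 in Hs6st3 and 0.05 in Chst1. Chst1, which was shown for its low CpG content, stood far below the other 5. Its peak distances may refer to another start site than that of this window. In all, 7 peak centres at 5 genes had distances between 250 bp before and 50 bp after the start site, the span of such windows. These were at +2 bp of St8sia6 in WT, at +11 bp of Chst3 in ΔMBD and -141 bp in ΔCC, at -247 bp of B4galnt2 in ΔMBD and +44 bp in ΔCC, at -229 bp of Chst15 in ΔMBD and at +45 bp of Chsy3 in GFP. Chsy3 had no RefSeq window and Chst15 had 2, so these 7 rest on the distances alone. They were 1 of 23 peaks in GFP, 1 of 49 in WT, 3 of 54 in ΔMBD and 2 of 27 in ΔCC. No such count was made over all listed genes. Most centres lay farther downstream.

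Of the 33 genes, 29 were listed in WT, 31 in ΔMBD, 17 in ΔCC and 15 in GFP. As shares these were 87.9% (interval 71.8 to 96.6) in WT, 93.9% (79.8 to 99.3) in ΔMBD, 51.5% (33.5 to 69.2) in ΔCC and 45.5% (28.1 to 63.6) in GFP. Over all 1935 listed genes the shares were 86.0% in WT, 86.7% in ΔMBD, 63.1% in ΔCC and 54.3% in GFP, each inside the interval of the 33. The lower numbers in GFP and ΔCC were therefore shared with the tables as a whole and are not a result about glycan enzymes.

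**Figure D1:**
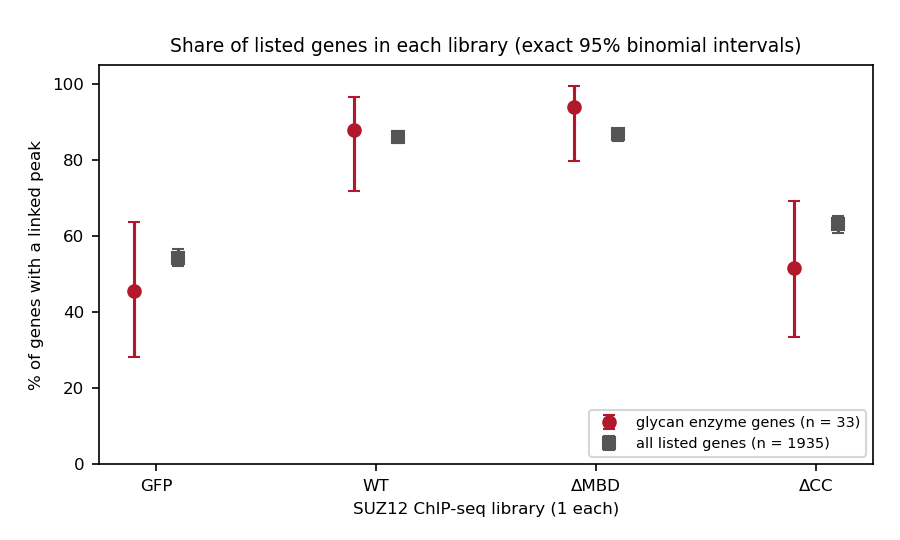
Percent of genes with a linked SUZ12 peak in each of the 4 libraries, for the 33 glycan enzyme genes (circles) and all 1935 listed genes (squares), with exact 95% binomial intervals over genes as bars. The 2 sets run together, with 45.5% and 54.3% in GFP at the low end, and every interval of the 33 covers the value of all genes.

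Counting by libraries, 13 of the 33 genes were listed in every library (39.4%, interval 22.9 to 57.9, against 46.5% of all listed genes). These were Hs3st2, Hs3st3a1, Hs3st3b1, Hs3st4, Hs6st2, Hs6st3, Chsy3, Chst2, Chst8, Galnt16, St8sia2, B4galnt1 and B4galnt2. Another 10 genes were listed in WT and ΔMBD but not in ΔCC or GFP (30.3%, interval 15.6 to 48.7, against 19.0% of all listed genes). They were Galnt3, Galnt7, Galnt12, Galnt13, Galnt14, St8sia5, St8sia6, Chst1, Chst11 and B3galnt1. Chst3, Chst7 and Chst15 were in every library but GFP, which is 9.09% of the 33 against 8.73% of all listed genes. Of the other 7, Chsy1 and Hs3st5 were in WT alone (6.06% of the 33 against 6.87% of all listed genes). B3gnt6, Hs3st6 and St6galnac5 were in ΔMBD alone (9.09%, interval 1.92 to 24.3, against 6.72%). Both are near the background. Fut4 was missing from ΔCC alone (3.03% against 3.10%) and St6gal2 from WT alone (3.03%, interval 0.0767 to 15.8, against 1.09%). All 15 genes of the GFP list and all 17 of the ΔCC list were also in the ΔMBD list, as were 94.0% of all GFP genes and 91.1% of all ΔCC genes, so these overlaps are near the background.

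**Figure D2:**
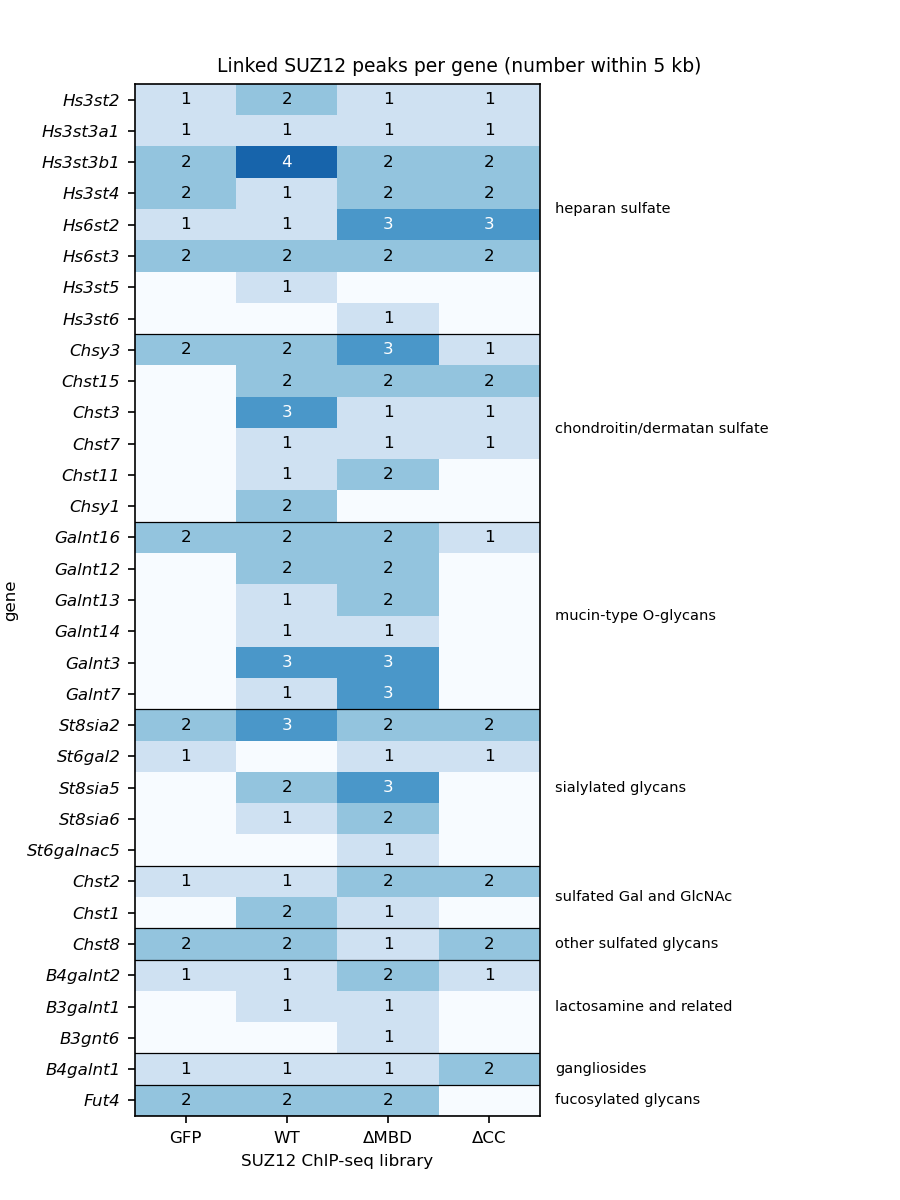
Number of SUZ12 peaks linked within 5 kb to each of the 33 genes (rows, grouped by glycan type) in the 4 libraries (columns), where an empty cell is a gene that is not listed and darker blue means more peaks. Of the 8 heparan sulfate genes 6 have peaks in all 4 columns, while 5 of the 6 Galnt genes have them in WT and ΔMBD only.

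Among the 33, 8 genes encode heparan sulfate enzymes. Of these, 7 were listed in WT, 7 in ΔMBD, 6 in ΔCC and 6 in GFP, and the same 6 were in every library (75.0%, interval 34.9 to 96.8, against 46.5% of all listed genes). The 8 were chosen for having a peak, and no Ndst or Extl gene of the same chain was listed in any library. The Hs3st genes encode sulfotransferases that act on the 3-O position of glucosamine, a late and rare modification of the chain that can create binding sites for particular proteins. Hs3st2, a brain-type enzyme, had centres at +677 and +2050 bp in WT, at +509 bp in ΔMBD, at +314 bp in ΔCC, and at +560 bp in GFP. The first centre given for each library lay within 363 bp of the others. Hs3st4, also best known from brain, had centres at +435 bp in WT, -1278 and +550 bp in ΔMBD, +635 and +1799 bp in ΔCC, and -493 and +455 bp in GFP. Every library thus had a centre between +435 and +635 bp.

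Hs3st3a1 and Hs3st3b1 encode closely related enzymes, known in human for making the heparan sulfate sites to which herpes simplex virus glycoprotein D binds. Hs3st3a1 had 1 peak a library, at +1019 bp in WT, +595 bp in ΔMBD, +505 bp in ΔCC and +1192 bp in GFP. At Hs3st3b1 the peaks lay at -2615, -2224, -1169 and +999 bp in WT, at +464 and +2840 bp in ΔMBD, at -753 and +362 bp in ΔCC, and at +638 and +2369 bp in GFP. The 4 WT peaks were the most at any of the 33 genes in any library, and 3 of them lay upstream, where GFP and ΔMBD had none. In the RefSeq gene order 1 protein-coding gene lies between these neighbours, and the peak numbers passed from one to the other without a gap in all 4 libraries. Hs3st2 and Hs3st4 lie on a common chromosome with 22 protein-coding genes between them. Their peak numbers also followed each other directly in GFP (2510 and 2511), WT (3495 and 3496) and ΔCC (3060 and 3061), and with 1 number between in ΔMBD (3884 and 3886). Where a ΔMBD gene had several peaks, their numbers ran in order of position at 909 of 910 genes, and in the other 3 libraries at all. If they do so between genes too, no peak was called between Hs3st2 and Hs3st4 in those 3 libraries.

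Hs6st2 and Hs6st3 encode 6-O-sulfotransferases, whose product is needed for signalling by many fibroblast growth factors. Hs6st3 kept the same arrangement in all 4 libraries, with 1 centre upstream and 1 downstream of the start site. These were -1782 and +89 bp in WT, -2110 and +242 bp in ΔMBD, -932 and +252 bp in ΔCC, and -1359 and +474 bp in GFP. The downstream centres spanned 385 bp and the upstream ones more. Hs6st2 had a centre at +1284 bp in GFP and +1397 bp in WT, against +1455, +2111 and +2789 bp in ΔMBD and +277, +1736 and +2516 bp in ΔCC. The last 2 genes of the type were each in a single library: Hs3st5 at +868 bp in WT and Hs3st6 at +725 bp in ΔMBD.

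All 6 chondroitin and dermatan sulfate genes were listed in WT, 5 in ΔMBD, 4 in ΔCC and 1 in GFP (16.7%, interval 0.421 to 64.1). The shares of all listed genes, given above for each library, lie inside the intervals of these 6 genes. Chsy3, a chondroitin synthase that extends the chain, was the gene listed in every library, at +347 and +2048 bp in WT, +638, +1905 and +2597 bp in ΔMBD, +299 bp in ΔCC, and +45 and +799 bp in GFP. Chsy1, the related synthase, was listed in WT alone, at +133 and +1354 bp. The synthases therefore stood at opposite ends, one in all lists and one in a single list.

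Among the sulfotransferases of this type, Chst3 and Chst7 add sulfate at the 6-O position of GalNAc, Chst11 at the 4-O position, and Chst15 adds a further sulfate to 4-O-sulfated GalNAc. Chst3 had centres at -773, +747 and +1588 bp in WT, at +11 bp in ΔMBD and at -141 bp in ΔCC. For Chst7 they were +430 bp in ΔMBD, +656 bp in ΔCC and +704 bp in WT. For Chst15 they were -229 and +966 bp in ΔMBD, +738 and +1625 bp in ΔCC, and +1219 and +2089 bp in WT. None of these 3 genes was listed in GFP. Chst11 was at +530 bp in WT and at -565 and +296 bp in ΔMBD, with no peak in ΔCC.

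The Galnt genes encode enzymes that place GalNAc on serine or threonine at the start of mucin-type O-glycans. Of 6, 6 were listed in WT, 6 in ΔMBD, 1 in ΔCC and 1 in GFP. In both ΔCC and GFP this was 16.7% (interval 0.421 to 64.1). The shares of all listed genes, 63.1% in ΔCC and 54.3% in GFP, lie inside that interval. Galnt3, whose enzyme protects the hormone FGF23 from cleavage, had 3 peaks in WT, at -1418, +404 and +2417 bp, and 3 in ΔMBD, at -1090, +554 and +1847 bp. The sites thus pair off between these libraries, with centres 328, 150 and 570 bp apart. Galnt7, which acts on peptides that already carry GalNAc, had a centre at +893 bp in WT and at +294, +912 and +1928 bp in ΔMBD. Galnt12 lay at +573 and +1730 bp in WT and at +1059 and +2042 bp in ΔMBD. Galnt13, a neuronal family member, lay at +760 bp in WT and at +244 and +913 bp in ΔMBD, and Galnt14 at +113 bp in WT and +251 bp in ΔMBD. None of these 5 had a peak in GFP or ΔCC. Galnt16 differed, with peaks at +231 and +3010 bp in WT, +1122 and +2563 bp in ΔMBD, +960 bp in ΔCC, and +215 and +2306 bp in GFP. A further gene of the family is in the tables under its older symbol Wbscr17, which RefSeq pairs with Galnt17, and is not among the 33. It was listed in every library, at +1205 bp in WT, +1140 and +2369 bp in ΔMBD, +703 bp in ΔCC, and +1740 bp in GFP. With it, 5 of 7 rather than 5 of 6 Galnt genes were in WT and ΔMBD only. For the 6 genes with the prefix, the share in WT and ΔMBD only was 83.3% (interval 35.9 to 99.6), against 19.0% of all listed genes. Of the heparan sulfate genes, 6 of 8 were in every library, and the 46.5% of all listed genes lies inside their interval. With 1 library a group, the difference between the glycan types was seen in these tables first and has no test.

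Sialyltransferase genes showed 4 different combinations among 5 genes. St8sia2 makes polysialic acid on the neural cell adhesion molecule NCAM in the developing brain, and was listed in every library. Its centres were +992, +2276 and +2686 bp in WT, +1105 and +2651 bp in ΔMBD, -363 and +298 bp in ΔCC, and -706 and +1378 bp in GFP. The GFP and ΔCC libraries had a centre upstream of the start site and WT and ΔMBD had none. The closest centres ran from -706 bp in GFP to +1105 bp in ΔMBD, a span of 1811 bp, the widest among the 33. GFP also had the centre at +1378 bp, so no site is shown to have moved. St8sia5, an enzyme of complex gangliosides, was in WT at -1114 and -302 bp and in ΔMBD at -1105, -633 and +54 bp. The +54 bp peak was also linked to Gm7276, and was the only peak of the 33 genes linked to a second gene. St8sia6, which extends sialic acid mainly on O-glycans, was in WT at +2 bp and in ΔMBD at -583 and +124 bp. St6gal2, a galactose-linked sialyltransferase of the brain, was in GFP at +605 bp, in ΔMBD at +312 bp and in ΔCC at +400 bp, and was the only gene of the 33 that had a GFP peak and no WT peak. St6galnac5, an enzyme of brain gangliosides, was in ΔMBD alone, at +842 bp.

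The remaining sulfotransferases act on galactose, N-acetylglucosamine or terminal GalNAc. Chst2, whose product forms part of L-selectin ligands, was listed in every library, at +663 bp in WT, +865 and +3208 bp in ΔMBD, +507 and +3738 bp in ΔCC, and +1250 bp in GFP. Chst8, which sulfates the GalNAc of pituitary hormones, was too, at +836 bp in ΔMBD, -740 and +469 bp in WT, +148 and +743 bp in ΔCC, and +453 and +1459 bp in GFP. Chst1, a sulfotransferase of keratan sulfate, was in WT at -1035 and +484 bp and in ΔMBD at +751 bp only.

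Of the galactose- and N-acetylhexosamine-adding enzymes, B4galnt1 and B4galnt2 were listed in every library. B4galnt3 and B4galnt4 were listed in none. B4galnt1, which makes the gangliosides GM2 and GD2, lay at +680 bp in ΔMBD, +291 bp in WT, +657 and +2984 bp in ΔCC, and +1308 bp in GFP. B4galnt2, the enzyme of the Sd(a) antigen, lay at -348 bp in WT, -955 and -247 bp in ΔMBD, +44 bp in ΔCC, and +102 bp in GFP. Its closest centre lay between -348 and +102 bp in every library. B3galnt1, the globoside synthase in human, was at +229 bp in WT and +406 bp in ΔMBD. B3gnt6, which by its function belongs to the O-glycans since it makes their core 3 structure, was in ΔMBD alone at +4565 bp. That centre was the farthest of all, and the next was at +3738 bp (Chst2 in ΔCC); no pair of the 33 genes lay beyond 5000 bp. Fut4, a fucosyltransferase that can make Lewis X, was at +809 and +1342 bp in GFP, +229 and +1567 bp in WT and +482 and +1567 bp in ΔMBD, and was not listed in ΔCC.

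**Figure D3:**
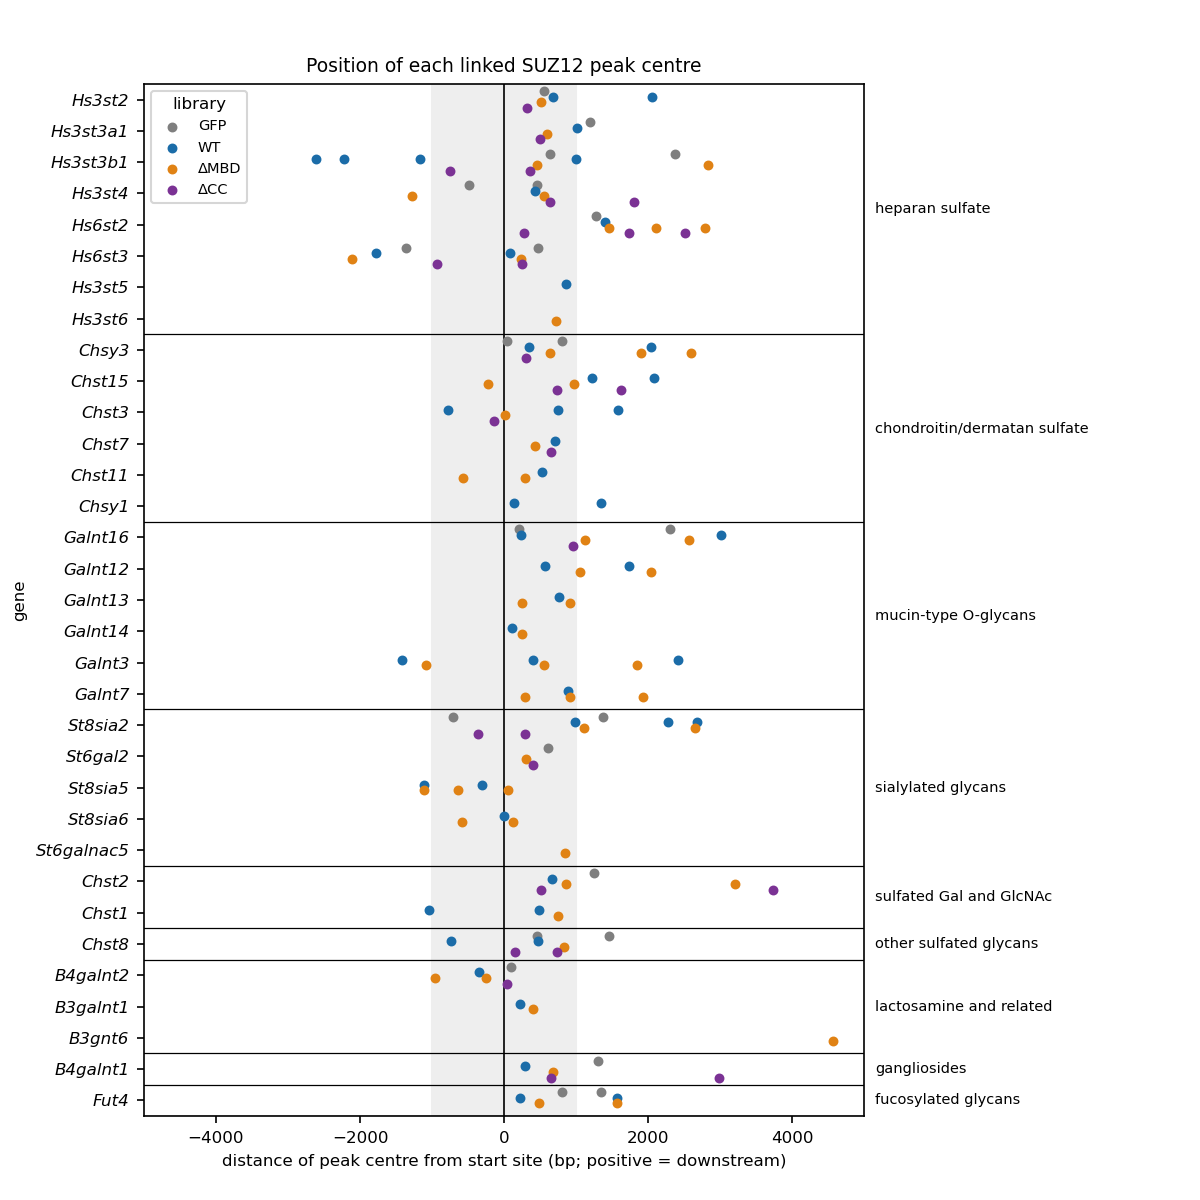
Distance in bp of every SUZ12 peak centre from the start site of its gene (x axis, positive downstream) for the 33 genes (rows, grouped by glycan type), coloured by library, with the range within 1000 bp shaded. Points crowd just right of the start site: the 17 ΔCC genes all have a centre in the shaded range, and B3gnt6 at +4565 bp stands alone on the right.

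Across the 33 genes the centres lay mostly just downstream of the start site. There were 49 distinct peaks in WT, 54 in ΔMBD, 27 in ΔCC and 23 in GFP. Of these, 77.6% (interval 63.4 to 88.2) lay at or downstream of the start site in WT, 81.5% (68.6 to 90.7) in ΔMBD, 85.2% (66.3 to 95.8) in ΔCC and 87.0% (66.4 to 97.2) in GFP. For all listed genes the shares were 69.3%, 67.5%, 66.5% and 67.4% in the same order, lower in each library, though outside the interval in ΔMBD alone. There 67.5% lies just below the lower end of 68.6%. That interval takes the 54 peaks as independent, though they lie at 31 genes, so it is likely too narrow. In ΔCC, 17 of 17 genes had their closest centre within 1 kb (100%, interval 80.5 to 100), against 72.0% of all ΔCC genes, which lies outside that interval. In WT this was 26 of 29 (89.7%, interval 72.6 to 97.8) against 73.0%, in ΔMBD 26 of 31 (83.9%, 66.3 to 94.5) against 72.4%, and in GFP 11 of 15 (73.3%, 44.9 to 92.2) against 67.9%, each inside its interval. Peaks per gene averaged 1.69 in WT, 1.74 in ΔMBD, 1.59 in ΔCC and 1.53 in GFP, against 1.65, 1.83, 1.91 and 1.86 over all listed genes.

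At the genes listed in every library, the closest centre can be compared between libraries, though it need not be the same site in each. For the 13 such glycan genes, the closest centres of the 4 libraries spanned a median of 687 bp, and in 10 they spanned 1000 bp or less (76.9%). For all 900 genes in every library the median was 987.5 bp, and in 50.6% the span was 1000 bp or less. No interval was computed for these shares, so with 13 genes a difference from all genes is not shown. The exceptions among the 13 were St8sia2 over 1811 bp, Hs6st2 over 1178 bp and B4galnt1 over 1017 bp.

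Putting WT beside GFP asks which sites are listed when MBD3 is restored. Of the 29 WT genes of the set, 14 were listed in GFP (48.3%, interval 29.4 to 67.5), against 58.8% of all WT genes. The 15 that were not are the 10 genes in WT and ΔMBD only, Chst3, Chst7, Chst15, Chsy1 and Hs3st5. Of the 49 WT peaks, 17 (34.7%, interval 21.7 to 49.6) had a GFP peak centred within 1 kb at the same gene, against 43.5% of all WT peaks. At the 14 shared genes alone this was 17 of 25 (68.0%, 46.5 to 85.1), against 68.5% over all shared genes. Where both libraries listed a glycan gene, the WT peaks thus matched about as often as elsewhere. In the other direction, 19 of 22 GFP peaks had a WT peak (86.4%, 65.1 to 97.1), against 70.5%, which lies inside the interval. Between GFP and ΔMBD, 22 of 23 GFP peaks at shared genes had a ΔMBD peak (95.7%, 78.1 to 99.9), against 71.8%, outside the interval. The reverse was 21 of 27 ΔMBD peaks (77.8%, 57.7 to 91.4), against 64.3%, inside it. Peaks of the same gene are not independent, so these intervals are likely too narrow.

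The ΔMBD and ΔCC libraries ask the same for cells without a domain of MBD3. In ΔMBD, 27 of the 29 WT genes were listed (93.1%, interval 77.2 to 99.2), against 90.0% of all WT genes, and Chsy1 and Hs3st5 were missing. In ΔCC, 16 of the 29 were listed (55.2%, interval 35.7 to 73.6), against 65.9%. The 13 missing genes were the 10 in WT and ΔMBD only, Chsy1, Hs3st5 and Fut4. Of the WT peaks, 77.6% (63.4 to 88.2) had a ΔMBD peak within 1 kb and 42.9% (28.8 to 57.8) a ΔCC peak, against 77.2% and 52.0% of all WT peaks. All of these shares of all genes lie inside the intervals of the glycan genes. Of the 14 WT genes with 1 WT peak, ΔCC listed 7 (interval 23.0 to 77.0) and GFP 6 (17.7 to 71.1), where 57.9% and 51.2% of all such WT genes were listed. Of the 15 with 2 or more, ΔCC listed 9 (interval 32.3 to 83.7) and GFP 8 (26.6 to 78.7), where the shares of all such genes were 75.7% and 68.1%. These 4 shares also lie inside the intervals of the glycan genes.

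Set against the genome, the families varied in how many of their genes were listed. RefSeq holds 120 protein-coding symbols with these 16 prefixes, and with Galnt17 34 of them were listed in some library. In GFP 13.3% (interval 7.82 to 20.7) of the 120 were listed, against 4.61% of 21900 protein-coding symbols. The shares were 25.0% (17.5 to 33.7) against 7.32% in WT, 26.7% (19.0 to 35.5) against 7.37% in ΔMBD, and 15.0% (9.14 to 22.7) against 5.37% in ΔCC. The families were proposed with these tables in view, so this excess is a description. Of the 7 Hs3st genes, 6 were listed in some library, and so were 7 of 14 Chst genes, 7 of 19 Galnt genes with Galnt17, 3 of 6 St8sia genes, 2 of 3 Hs6st genes and 2 of 2 Chsy genes. The intervals are wide, at 42.1 to 99.6% for Hs3st, 9.43 to 99.2% for Hs6st and 15.8 to 100% for Chsy. Lower shares were seen for St6gal (2 of 8), B4gal (2 of 11), B3gal (1 of 7), Fut (1 of 8) and B3gnt (1 of 9). At the other end, none of the 11 Mgat genes, which branch N-glycans, was listed, and none of the 6 St3gal, 4 Ndst, 3 Extl and 2 Chpf genes. The interval of the Mgat share reaches 28.5% and that of St3gal 45.9%, so these numbers are too small to show depletion. Fut9, the other Lewis X enzyme, was not listed.

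Other genes of the same pathways, in a list of 71 enzymes and proteoglycan core proteins outside the prefixes, were counted in the same way. In WT 14 were listed (19.7%, interval 11.2 to 30.9), in ΔMBD 10 (14.1%, 6.97 to 24.4), in ΔCC 7 (9.86%, 4.06 to 19.3) and in GFP 5 (7.04%, 2.33 to 15.7), and 16 were in some library. The protein-coding share was outside the interval in WT, where it was 7.32%, and inside it in ΔMBD, ΔCC and GFP. This list was also chosen with earlier results of these data known, and 69 of its 71 symbols are in RefSeq. The WT excess is therefore a description. Of 12 heparan sulfate and linker enzymes, among them the chain polymerases Ext1 and Ext2, only Hpse and Hpse2 were listed. Hpse, the heparanase that cuts the chain, was in WT alone at +78 bp, and Hpse2, its relative without that activity, was in every library, with a closest centre between -833 and +2760 bp. None of 5 further chondroitin and dermatan enzymes was listed. Of 29 O-glycan and other extending enzymes 5 were listed. Lfng, which modifies Notch receptors, and B3gat2, an enzyme of the HNK-1 sugar, were in every library, B3gat1, also of HNK-1, was in every library but GFP, Gcnt4 was in WT and ΔMBD, and Ugt8a in WT. Of 25 core proteins 9 were listed, of which the glypican Gpc6 and the brain proteoglycan Bcan were in every library. Gpc1 and Spock1 were in WT and ΔMBD, Sdc1, Spock2 and Spock3 in WT alone, Sdc3 in ΔCC alone and Acan in ΔMBD alone.

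The listed genes had CpG-rich promoter windows. A RefSeq window was found for 26 of the 33 genes, 23 of them with 1 window and the others averaged over their windows. The median CpG ratio was 0.79 and the median GC content 67.5%, against 0.73 and 64.7% for 1367 listed genes with a window and 0.56 and 56.3% for 17492 protein-coding genes. For 65 genes of the same families that were not listed, the median ratio was 0.63. A ratio of at least 0.6 was found in 21 of the 26 (80.8%), against 67.4% of listed and 47.2% of protein-coding genes. The quartiles of the ratio overlapped, at 0.62 and 0.90 for the 26 and 0.55 and 0.87 for listed genes. No interval was computed for the promoter shares, so a difference between the 26 and other listed genes is not shown. The glycan genes in every library (11 with a window) had a median of 0.80 and those in WT and ΔMBD only (8 with a window) 0.88, with overlapping ranges. Hs3st4 had the most CG dinucleotides with 47 in its window, and Chsy1 had the highest ratio with 1.07. Chst1 at 0.05, Hs3st5 at 0.30, Chst7 at 0.41, St6gal2 at 0.49 and Fut4 at 0.52 were the windows below 0.6. The GC box GGGCGG, searched on both strands (CCGCCC on the other), was in 22 of the 26 genes (84.6%), against 71.0% of listed and 49.2% of protein-coding genes. Its letters are part of what makes a window CpG-rich. The TATAAA motif, searched likewise with TTTATA, was in 1 gene, Hs6st2 (3.85%), against 9.88% of listed and 14.8% of protein-coding genes.

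**Figure D4:**
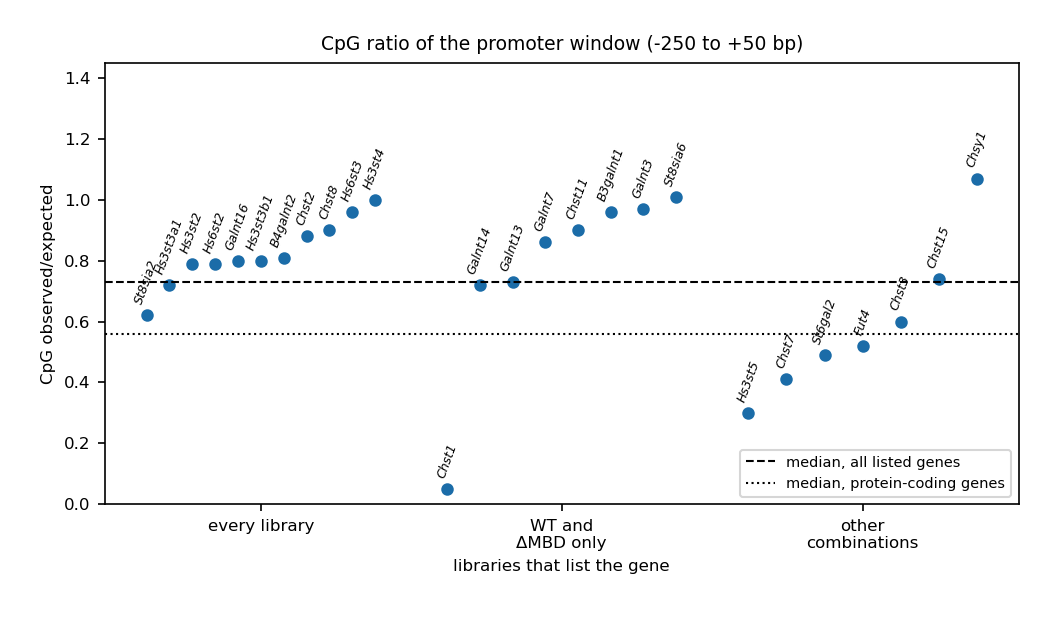
Observed/expected CpG ratio of the 300-base RefSeq window (y axis, no unit) for the 26 glycan enzyme genes with a window, 1 point a gene, split by the libraries that list the gene, with the medians of all listed genes (dashed, 0.73) and of protein-coding genes (dotted, 0.56). Genes in every library and in WT and ΔMBD only overlap, Chst1 at 0.05 lies far below, and Hs3st5, Chst7, St6gal2 and Fut4 in the last class lie under 0.6.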

How the data were processed

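SUZ12 ChIP-seq was done in 4 cultures of Mbd3-knockout mouse ESCs, 1 library each. Per the labels, the remaining sample is the input, which was not used here. Per the submitters' processing notes, bcl2fastq 2.18.0.12, MACS2 and mm9 were used. Not given in the sources used here are the aligner and the version, settings and threshold of MACS2. Per the file headers, the authors linked each library's peaks to genes with GREAT 3.0.0 (nearest gene on each side, at most 5000 bp, curated domains included). The deposited values are signed distances in bp between peak and start site, with no score, count or fold. No p-value was computed, and depth is unknown.

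Genes were matched by the symbols in the tables. All 33 symbols matched RefSeq (GRCm38.p6). Pairs within 5000 bp were kept. Shares carry exact 95% binomial intervals, and peaks were matched within 1000 bp at the same gene. Glycan types followed hand-written lists. The named genes are all 33 plus the listed genes of the 71 others. The members and lists were chosen with earlier results of these data known. The functions were tested on simulated tables. Alternatives were a 1000 bp window, all deposited pairs, at least 2 peaks, RefSeq symbols, and other matching and start-site distances. Python 3.11.15, SciPy 1.17.1 and matplotlib 3.10.9 were used.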

Additional observations from a re-analysis of the deposited data

How the results depend on the processing

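No paired analysis was possible because each group has 1 library and no result comes from a test, and no library could be left out of a group. Using all deposited pairs changed none of the 54 values recomputed that way, since every pair of these genes lay within 5000 bp. Requiring at least 2 peaks left 15 genes in WT, 18 in ΔMBD, 9 in ΔCC and 8 in GFP. Of the 15 WT genes, 10 were then in ΔMBD (66.7%), 5 in ΔCC (33.3%) and 7 in GFP (46.7%). With any peak the shares were 55.2% in ΔCC and 48.3% in GFP. The order of ΔCC and GFP under the 2-peak rule rests on few genes and has no interval. No share of all genes was computed under that rule, here or by type, so a change of order is not shown. There were 3 genes in every library, 3 in WT and ΔMBD only and 1 in every library but GFP. By type, heparan sulfate genes numbered 3 in GFP, 3 in WT and 4 in ΔMBD, chondroitin and dermatan genes 3 in ΔMBD and 1 in ΔCC, and Galnt genes 3 in WT and 0 in ΔCC. Sialyltransferase genes numbered 1 in GFP, 3 in ΔMBD and 1 in ΔCC. Sulfated galactose and N-acetylglucosamine genes were 0 in GFP, 1 in WT and 1 in ΔMBD, lactosamine genes 0 in WT, 1 in ΔMBD, 0 in ΔCC and 0 in GFP, the ganglioside gene B4galnt1 was in 0 of GFP, WT and ΔMBD, and Chst8 in 0 of ΔMBD. With a 1000 bp window 7 genes were in every library, B4galnt1, Chst2, Hs3st3a1 and Hs6st2 left the GFP list, which fell from 15 to 11 genes (0 of the types of the first 2), heparan sulfate genes in every library fell from 6 to 4, and the peaks numbered 13 in GFP, 28 in WT and 33 in ΔMBD. With RefSeq symbols, which add Galnt17, Galnt genes numbered 2 in GFP and 2 in ΔCC. The share of peaks within 1 kb of start sites was 57.1% (interval 42.2 to 71.2) in WT and 61.1% (46.9 to 74.1) in ΔMBD. It was 77.8% (57.7 to 91.4) in ΔCC and 56.5% (34.5 to 76.8) in GFP. Over all listed genes it was 52.6%, 49.3%, 47.1% and 46.2% in the order WT, ΔMBD, ΔCC and GFP, outside the interval in ΔCC alone. These intervals take peaks of the same gene as independent, so they are likely too narrow. By construction the share was lower at 500 bp (30.6%, 27.8%, 40.7% and 30.4% in that order). It was higher at 2000 bp (91.3%, 81.6% and 81.5% in GFP, WT and ΔMBD). Of the WT peaks, 89.8% had a ΔMBD peak within 2000 bp and 26.5% a ΔCC peak within 500 bp. The 1000 bp window and the 2-peak rule leave fewer peaks and genes by construction. The order of the glycan types is limited by their number of genes, and the unknown depth limits what an unlisted gene shows.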
